A study of Mus musculus with 16 samples.

Results

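The messenger RNA of the nuclear receptors CAR and PXR was followed in the livers of mice labelled Humanized PXR-CAR-CYP3A4/3A7. The rows were chosen by identifier, with earlier results of these data known. They are human NR1I3 (ENSG00000143257, encoding CAR), human NR1I2 (ENSG00000144852, encoding PXR), mouse Nr1i3 (ENSMUSG00000005677) and mouse Nr1i2 (ENSMUSG00000022809), and make up 4 of the 13006 rows in the count table. All 4 passed the filter on low counts. The 16 liver libraries, made from poly(A) RNA, fall into 4 groups of 4. EM mice received both ethinylestradiol (EE), a synthetic estrogen that impairs bile flow, subcutaneously at 10 mg/kg in propylene glycol for 7 days, and MI763F, a compound with a code name that the labels call a CAR ligand, by gavage at 2.5 mg/kg for 6 days from day 2. EV mice received EE at that dose, CM mice received MI763F at that dose, and CV mice were the propylene glycol controls. Every group carries the same humanized genotype. The labels do not say what was done to the mouse Nr1i3 and Nr1i2 genes, which promoters drive the human genes, or whether the gavage vehicle of DMSO, PEG300 and corn oil was given to EV and CV mice. Age and sex are not given, and nothing states that each library came from its own animal, so p-values reflect only how far these samples spread, which may be technical.

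CAR and PXR are ligand-activated transcription factors of hepatocytes and intestinal cells that sense drugs, bile acids and other foreign or toxic compounds. Each binds DNA as a heterodimer with a retinoid X receptor and switches on phase I enzymes, conjugating enzymes and transporters, with many target genes in common. CAR is held in the cytoplasm by chaperones until a ligand, or loss of a growth factor signal, lets it move to the nucleus, whereas PXR is activated by direct ligand binding. The human and mouse receptors differ in which compounds they recognise, which is why mice are humanized for them. The comparisons below ask whether EE, the CAR ligand or both changed the mRNA of the receptors themselves.

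Totals ran between 14115384 and 21473227 estimated counts per library, and the receptor rows held 1059 to 4098 (NR1I3), 791 to 1366 (NR1I2), 167 to 620 (Nr1i3) and 147 to 279 (Nr1i2) estimated counts. EE status separated the libraries on the main axis of a principal component analysis (48.3% of the variance). EM replicate 1 lay at 62.6 on it, near the EV libraries (66.7 to 75.4) and away from the other EM libraries (37.1 to 46.7). CM replicate 2 stood apart on the next axis (6.17%), at -58.9, and CV replicates 1 and 2 lay on its other side, at 35.6 and 45.2, against 1.13 and 1.47 in the other CV libraries. Leaving out either of those CV libraries changed no receptor call. Receptor results that rest on EM replicate 1 or CM replicate 2 are given below with and without them. Of 18 hepatocyte markers all were detected, with summed levels of 51678 to 67279 CPM in EM, 44188 to 54470 in EV, 107168 to 134063 in CM and 109385 to 135471 in CV livers. In bulk tissue, fewer hepatocytes and less RNA per hepatocyte cannot be told apart.

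With trimmed-mean scaling, human CAR mRNA was lower in every EE-treated liver than in every liver without EE. NR1I3 stood at 56.5, 98.0, 96.4 and 86.9 CPM in the EM livers. EV livers had 58.0, 75.9, 69.6 and 66.9 CPM, CM livers had 254, 120, 226 and 215 CPM, and CV livers had 180, 245, 235 and 197 CPM (CPM are counts as a share of the library total, scaled with trimmed-mean factors). The lowest library without EE, CM replicate 2 at 120 CPM, was still above the highest EE library at 98.0 CPM. Unscaled shares of the library total did not separate completely. There EM replicates 2 (1607 of 14571791 estimated counts) and 3 (2171 of 20040199) passed CM replicate 2 (1871 of 17841692). The group means were 84.5 ± 19.2 CPM in EM, 67.6 ± 7.43 in EV, 204 ± 58.2 in CM and 214 ± 30.9 in CV livers (SD, n = 4 each). From high to low the order was CV, CM, EM, EV, and the neighbours CV and CM, and EM and EV, overlapped. NR1I3 fell by 1.66 ± 0.21 on the log2 scale in EV vs CV (SE, edgeR quasi-likelihood test, adjusted p = 1.29e-05) and by 1.27 ± 0.21 in EM vs CM (adjusted p = 0.000245). With both treatments it was still lower than in vehicle livers, by -1.34 in EM vs CV (adjusted p = 0.000143).

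**Figure D1:**
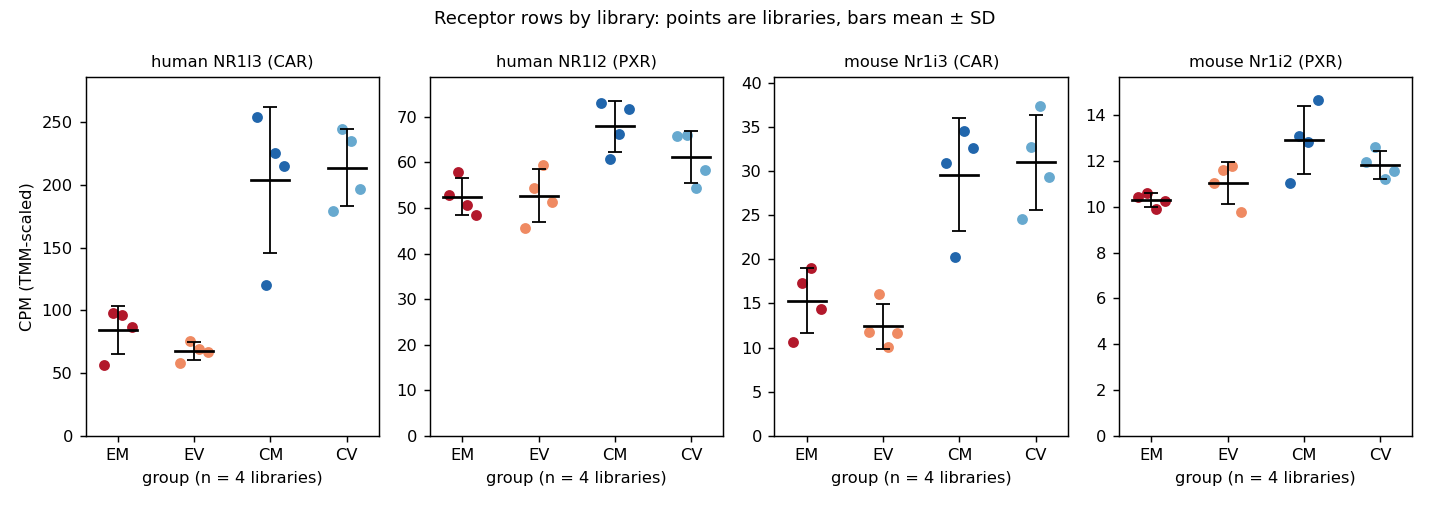
Level of each receptor row, in CPM scaled with trimmed-mean factors on the vertical axis, in the EM, EV, CM and CV groups. Points are libraries (n = 4 per group), the long bar is the mean and the error bar the SD. On this scale both CAR rows sit lower with EE. NR1I3 is at most at 98.0 CPM in EE-treated livers and at least at 120 CPM in the others. The PXR rows stay within narrow ranges.

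Mouse Nr1i3, the endogenous CAR gene, showed the same pattern at a lower count. It stood at 10.6, 17.3, 18.96 and 14.3 CPM in EM livers and at 11.7, 16.1, 10.1 and 11.6 CPM in EV livers. CM livers had 31.0, 20.2, 34.6 and 32.6 CPM, and CV livers had 24.6, 32.7, 37.3 and 29.3 CPM. Again, with trimmed-mean scaling, no EE-treated library reached the lowest library without EE, which was CM replicate 2. Unscaled shares of the library total overlapped here too. EM replicate 3 (427 of 20040199 estimated counts) passed CM replicate 2 (315 of 17841692) and CV replicate 1 (345 of 16336715). Means were 15.3 ± 3.67 CPM in EM, 12.4 ± 2.59 in EV, 29.6 ± 6.43 in CM and 31.0 ± 5.39 in CV livers (SD, n = 4 each), in the same order of groups as NR1I3. Nr1i3 fell by 1.32 ± 0.21 on the log2 scale in EV vs CV (adjusted p = 9.26e-05) and by 0.95 ± 0.21 in EM vs CM (adjusted p = 0.00207), and the log2 fold change in EM vs CV was -1.02 (adjusted p = 0.00116). In EM vs CV 40.6% of genes were called. Levels of the human and mouse rows are not compared with each other, because the gene lengths behind the estimated counts are not given. Nor can it be told from this table how far reads of the human and mouse sequences were assigned to each other's rows.

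These falls stood against a broad EE response. In EV vs CV 50.4% of the 12918 genes tested were called, 25.5% higher and 24.9% lower, and in EM vs CM 38.1% were called, 19.4% higher and 18.6% lower. Being called lower is therefore shared with many genes, and so is a complete separation of the groups, which 22.7% of genes showed downward in EV vs CV, 16.8% in EM vs CM, 18.1% in EM vs CV and 21.8% in EV vs CM. The sizes lay toward the low end: 3.99% of genes had a lower log2 fold change than NR1I3 in EV vs CV and 6.25% a lower one than Nr1i3, and in EM vs CM the shares were 3.66% and 6.77%. Without CM replicate 2 the EM vs CM changes were -1.46 for NR1I3 and -1.10 for Nr1i3, and without EM replicate 1 they were -1.12 and -0.81, all with an adjusted p of at most 0.00736. In the average of both EE comparisons, which was added after the data were seen and in which 57.2% of genes were called, NR1I3 fell by 1.47 ± 0.15 (adjusted p = 7.55e-07) and Nr1i3 by 1.14 ± 0.15 (adjusted p = 8.88e-06).

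For the mouse gene the promoter window just upstream of the annotated start is shown, so that the CAR and PXR genes, whose mRNAs moved so unequally with EE, can be set side by side. The sequences are from RefSeq, build GRCm38.p6, an earlier build than the one named for these libraries, and run 5′ to 3′ along the gene's own strand over the 250 bases before the start. The Nr1i3 window is chr1:171213720-171213969 on the plus strand, and the Nr1i2 window is chr16:38294825-38295074 on the minus strand. Capitals mark the matches to 6 motifs searched on both strands.
Nr1i3: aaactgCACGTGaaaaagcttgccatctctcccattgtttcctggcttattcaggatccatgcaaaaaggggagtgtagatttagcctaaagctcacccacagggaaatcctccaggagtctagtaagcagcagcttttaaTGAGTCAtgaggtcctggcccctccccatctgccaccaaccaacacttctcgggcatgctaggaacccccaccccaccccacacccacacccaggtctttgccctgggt
Nr1i2: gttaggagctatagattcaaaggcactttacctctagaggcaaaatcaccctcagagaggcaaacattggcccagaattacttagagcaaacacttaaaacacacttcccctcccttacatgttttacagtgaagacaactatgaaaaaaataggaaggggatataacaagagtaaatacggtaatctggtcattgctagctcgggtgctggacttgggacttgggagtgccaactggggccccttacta
Nuclear receptor half-sites were searched as AGGTCA, the usual form, and as the variant form AGTTCA, and the half-site of HNF1 factors as GTTAAT in the same way. After the sequences were seen, the E-box CACGTG that clock and other factors bind, the AP-1 element TGAGTCA and, as a site of PAR bZIP clock factors, TTATGTAA were added. The E-box began 244 bases and the AP-1 element 109 bases before the Nr1i3 start, without overlap, and the Nr1i2 window held none of the 6. Both matches are of motifs added after the sequences were seen, and the motifs searched first matched neither window. The contrast between the windows is therefore no test. Among 32851 windows of this length, the E-box occurred in 6.02%, the AP-1 element in 4.46% and the PAR bZIP site in 0.819%. The usual nuclear receptor half-site was in 14.02% of them, its variant in 11.8% and the HNF1 half-site in 6.43%. The labels do not say whether the humanized alleles retain these mouse sequences. A match describes letters and not a bound site.

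PXR mRNA moved far less, and the direction of its change depended on how the libraries were scaled. Human NR1I2 stood at 52.8, 58.0, 50.6 and 48.6 CPM in EM livers and at 45.6, 54.4, 59.5 and 51.4 CPM in EV livers. CM livers had 73.0, 60.8, 66.2 and 71.8 CPM, and CV livers had 65.8, 65.9, 54.4 and 58.4 CPM. On this scale EM and CM livers did not overlap, while EV and CV livers did. Means were 52.5 ± 4.06 CPM in EM, 52.7 ± 5.81 in EV, 68.0 ± 5.61 in CM and 61.1 ± 5.73 in CV livers (SD, n = 4 each), so the order was CM, CV, EV, EM and each pair of neighbours overlapped. With trimmed-mean scaling the log2 fold change in EV vs CV was -0.21 (95% interval -0.42 to -0.01), which did not pass after adjustment (adjusted p = 0.0761). In EM vs CM NR1I2 fell by 0.37 ± 0.096 (adjusted p = 0.00641), a size reached or passed downward by 22.8% of genes. In EM vs CV the change was -0.22 (adjusted p = 0.0817). CV replicate 3, at 54.4 CPM the lowest CV library, decided both misses: without it the changes were -0.27 in EV vs CV (adjusted p = 0.0387) and -0.27 in EM vs CV (adjusted p = 0.0432). The EV vs CV change also passed without EV replicate 3, at -0.29 (adjusted p = 0.0309).

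Mouse Nr1i2, the endogenous PXR gene, had the smallest coefficient of variation of the 4 rows in EM (2.91%), EV (8.24%) and CV livers (5.09%), but not in CM livers (11.5%, against 8.25% for NR1I2). If the estimated counts were reads, counting alone would give 7.15% in EM and 7.60% in CV livers. The smaller spreads seen there cannot be read as steadiness of the gene. It stood at 10.4, 10.6, 9.90 and 10.3 CPM in EM livers and at 11.04, 11.6, 11.8 and 9.77 CPM in EV livers. CM livers had 11.05, 13.1, 12.8 and 14.7 CPM, and CV livers had 12.0, 12.6, 11.2 and 11.6 CPM. With trimmed-mean scaling all EM libraries were below all CM and all CV libraries, whereas EV and CV libraries overlapped. Means were 10.3 ± 0.300 CPM in EM, 11.1 ± 0.911 in EV, 12.9 ± 1.48 in CM and 11.8 ± 0.602 in CV livers (SD, n = 4 each). The order was CM, CV, EV, EM, again with overlap between neighbours. The change was -0.10 in EV vs CV (95% interval -0.30 to 0.10, adjusted p = 0.415) and -0.20 in EM vs CV (adjusted p = 0.106), and in EM vs CM Nr1i2 fell by 0.33 ± 0.094 (adjusted p = 0.0125). In the EE average NR1I2 fell by 0.29 ± 0.068 (adjusted p = 0.00168) and Nr1i2 by 0.21 ± 0.067 (adjusted p = 0.0130).

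These PXR falls did not survive another scaling. The trimmed-mean factors were 1.096 to 1.128 in EM, 1.174 to 1.232 in EV, 0.833 to 0.886 in CM and 0.8325 to 0.910 in CV libraries, so they differed with EE. Scaling by library totals alone moved the median of all genes by 0.49 in EV vs CV, 0.38 in EM vs CM and 0.43 in the EE average on the log2 scale, and 84.14% in place of 50.5% of the genes called in EV vs CV were then higher. On library totals NR1I2 was higher in EV vs CV by 0.27 (adjusted p = 0.0211) and Nr1i2 by 0.39 (adjusted p = 0.00436), both below the 0.49 of the median gene. In EM vs CM the values were 0.00357 for NR1I2 (adjusted p = 0.978) and 0.0451 for Nr1i2 (adjusted p = 0.735). The CAR rows kept their fall: NR1I3 had -1.17 in EV vs CV (adjusted p = 0.000134) and -0.89 in EM vs CM (adjusted p = 0.00183), and Nr1i3 had -0.83 (adjusted p = 0.00275) and -0.57 (adjusted p = 0.0299). Which scaling matches the livers' RNA content was not tested.

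**Figure D2:**
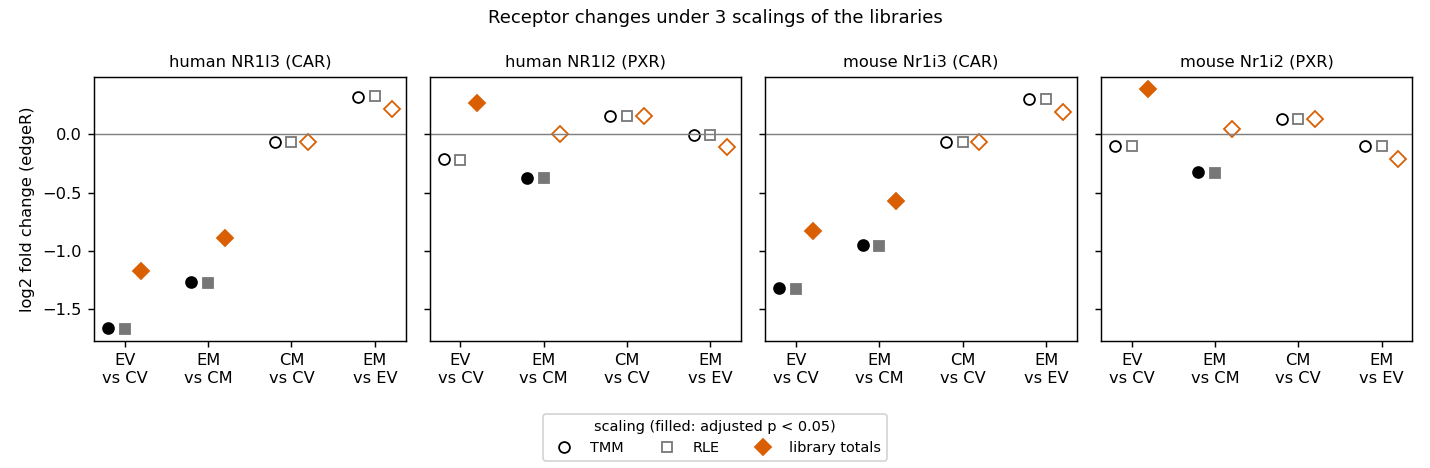
Log2 fold change of each receptor row on the vertical axis in EV vs CV, EM vs CM, CM vs CV and EM vs EV, with trimmed-mean factors (circles), relative log expression factors (squares) and library totals (diamonds). Filled symbols passed an adjusted p of 0.05. The CAR rows stay below 0 with EE under all 3 scalings, and the PXR rows cross to above 0 with library totals.

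The ratio of 2 rows within a library does not depend on the scaling. The ratio of human NR1I3 to NR1I2 estimated counts was 1.07, 1.69, 1.90 and 1.79 in EM livers and 1.27, 1.40, 1.17 and 1.30 in EV livers. In CM livers it was 3.48, 1.97, 3.41 and 3.00, and in CV livers 2.73, 3.71, 4.32 and 3.36. Every EE-treated liver was below every liver without EE. The ratio, which does not give relative molecule numbers because gene lengths differ, averaged 1.61 ± 0.372 in EM, 1.28 ± 0.0931 in EV, 2.97 ± 0.695 in CM and 3.53 ± 0.664 in CV livers (SD, n = 4 each). Averaged over ligand status, EE lowered it to 0.448 of its level without EE (exact two-sided permutation within ligand groups, p = 0.000408, the smallest it can give, adjusted over 8 tests 0.00327). In an exact permutation of 4 libraries against 4 the p cannot go below 0.0286, and none of 16 separate comparisons passed after adjustment. EV vs CV reached that smallest value (log2 difference -1.44, adjusted p = 0.152, exact permutation), as did EM vs CM (-0.88, adjusted p = 0.152, exact permutation).

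Within the mouse genes the ratio of Nr1i3 to Nr1i2 averaged 1.49 ± 0.380 in EM, 1.12 ± 0.222 in EV, 2.32 ± 0.574 in CM and 2.63 ± 0.527 in CV livers (SD, n = 4 each). EV and CV livers did not overlap, and EM and CM livers did, since CM replicate 2 had 1.54 and EM replicates 2 and 3 had 1.63 and 1.91. EE lowered this ratio to 0.524 of its level without EE (exact permutation within ligand groups, p = 0.00122, adjusted 0.0049). The separate differences were -1.23 in EV vs CV (exact permutation p = 0.0286, adjusted 0.152) and -0.64 in EM vs CM (exact permutation p = 0.0857, adjusted 0.229). In the rows of both species the CAR to PXR ratio was thus lower with EE, whichever scaling is used. The human and mouse rows may share reads, so these are not counted as 2 independent results.

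Set against each other, the human and mouse rows of one receptor changed in the same direction in the EE average, for CAR not to the same extent. The part of reads assigned to the other species' row in this was not tested. The ratio of NR1I3 to Nr1i3 averaged 5.54 ± 0.420 in EM, 5.58 ± 0.989 in EV, 6.82 ± 0.970 in CM and 6.95 ± 0.552 in CV livers (SD, n = 4 each). Its groups overlapped, and averaged over ligand status it was lower with EE, at 0.806 of the level without (exact permutation p = 0.00367, adjusted 0.0098), so the human row fell somewhat more than the mouse row. The ratio of NR1I2 to Nr1i2 averaged 5.10 ± 0.300 in EM, 4.78 ± 0.497 in EV, 5.33 ± 0.879 in CM and 5.16 ± 0.277 in CV livers (SD, n = 4 each), a log2 difference of -0.08 with EE (exact permutation p = 0.278, adjusted 0.555). For the ligand, averaged over EE status, the 4 ratios had adjusted p from 0.628 to 0.929 by exact permutation.

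**Figure D3:**
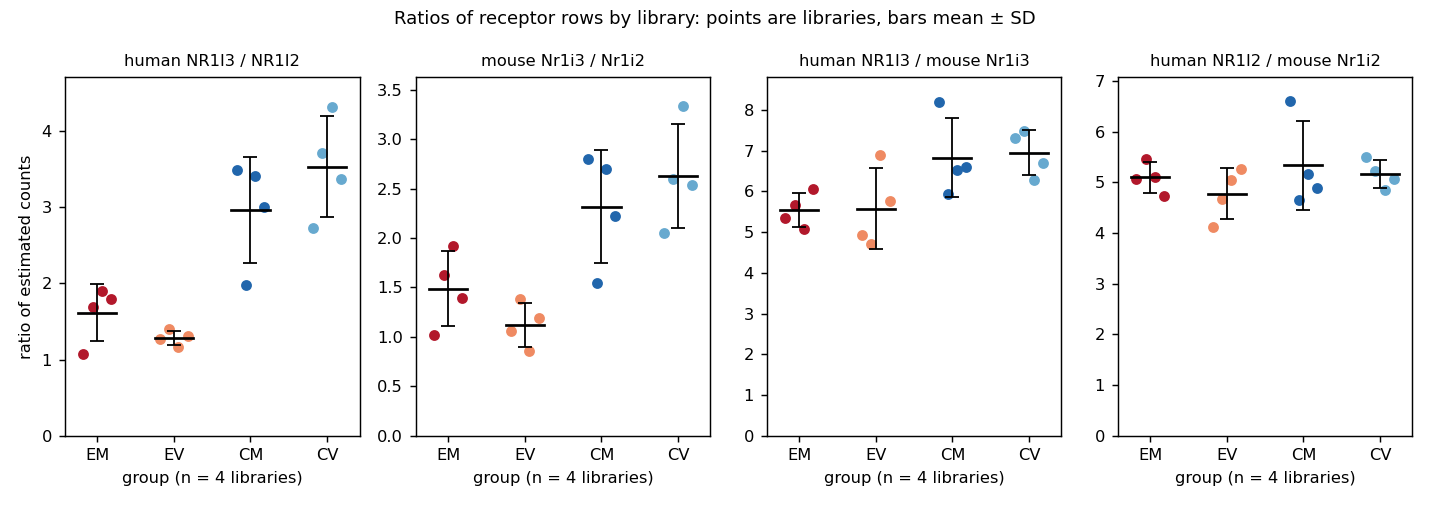
Ratio of the estimated counts of 2 receptor rows in each library on the vertical axis, for the EM, EV, CM and CV groups. Points are libraries (n = 4 per group), the long bar is the mean and the error bar the SD. The NR1I3 to NR1I2 ratio is at most 1.90 in EE-treated livers and at least 1.97 in the others, while the NR1I2 to Nr1i2 ratio overlaps between all groups.

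Markers of hepatocytes fell with EE as well. Of the 18, 14 fell and 1 rose in EV vs CV (median log2 fold change -1.41, against 0.00 for all genes) and 14 fell and 1 rose in EM vs CM (median -0.92), and with library totals 13 fell and 2 rose in EV vs CV. Macrophage markers were higher, 10 of 12 in EV vs CV and 11 of 12 in EM vs CM, with summed levels of 1894 to 3149 CPM in EM, 2299 to 2689 in EV, 397 to 809 in CM and 383 to 985 in CV livers. Lymphoid and neutrophil markers summed to 63.2 to 158 CPM in EM, 72.6 to 158 in EV, 24.4 to 56.7 in CM and 10.7 to 27.7 in CV livers, and no marker of either list was at 0 throughout a group. Cholangiocyte markers, of which 4 of 7 were in the table, summed to 84.2 to 189 CPM in EM, 131 to 197 in EV, 54.4 to 77.2 in CM and 40.4 to 57.5 in CV livers. Of these 4, Spp1 rose by 1.84 and Sox9 by 3.67 in EV vs CV, with rises of 1.19 and 2.04 in EM vs CM. Epcam fell by 0.73 in EM vs CM (adjusted p = 0.0251), while its EV vs CV value of -0.26 did not pass, nor did Krt19, at 0.07 in EV vs CV or -0.85 in EM vs CM. All 5 red cell markers rose in both comparisons, also with library totals, and summed to 1807 to 4017 CPM in EM, 2527 to 3469 in EV, 841 to 1370.0 in CM and 984 to 1967 in CV livers. Of 10 endothelial markers 5 rose in EV vs CV (9 with library totals), with 3 in EM vs CM (5 with library totals), and they summed to 223 to 311 CPM in EM, 286 to 311 in EV, 156 to 242 in CM and 112 to 250.02 in CV livers. Of 9 stellate and fibroblast markers, 3 rose and 1 fell in each comparison. Over all genes, 25.5% rose and 24.9% fell in EV vs CV, and 19.4% and 18.6% in EM vs CM. With library totals 11 of 12 macrophage markers were higher in each of these comparisons. The part of these other cell types' markers in the receptor results was not tested.

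A scale added after the data were seen gives each receptor row per 1000 CPM of the summed hepatocyte markers. On it NR1I3 stood at 1.36 ± 0.189 in EM, 1.37 ± 0.236 in EV, 1.77 ± 0.595 in CM and 1.78 ± 0.234 in CV livers (SD, n = 4 each). EE gave a log2 difference of -0.35 averaged over ligand status, which did not pass (exact permutation p = 0.0612, adjusted over 20 tests 0.136). That miss rests on CM replicate 2, at 0.895 against 1.96 to 2.22 in the other CM libraries: without it the difference was -0.50 and passed (exact permutation p = 0.00122, adjusted 0.00816). The EM vs CM difference was -0.31 with it and -0.62 without it (exact permutation, adjusted p = 0.615 and 0.0714). Nr1i3 stood at 0.245 ± 0.0368 in EM, 0.253 ± 0.0776 in EV, 0.256 ± 0.0722 in CM and 0.257 ± 0.0334 in CV livers, a difference of -0.04 (exact permutation p = 0.807), and of -0.16 without CM replicate 2 (exact permutation p = 0.249). The marker sum itself was lower with EE, averaging 61638 CPM in EM, 49854 in EV, 117670 in CM and 120116 in CV livers. Any row that fell less than this sum therefore comes out higher on this scale. Both PXR rows did so, and the tests below do not separate a change in them from the fall of the markers. NR1I2 stood at 0.861 ± 0.129 in EM, 1.06 ± 0.137 in EV, 0.584 ± 0.0954 in CM and 0.513 ± 0.0758 in CV livers, and was 1.75-fold higher with EE (exact permutation p = 0.000408, the smallest it can give, adjusted 0.00408). Nr1i2 stood at 0.169 ± 0.0231 in EM, 0.224 ± 0.0346 in EV, 0.111 ± 0.0188 in CM and 0.0992 ± 0.0113 in CV livers, and was 1.86-fold higher with EE (exact permutation, adjusted p = 0.00408).

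**Figure D4:**
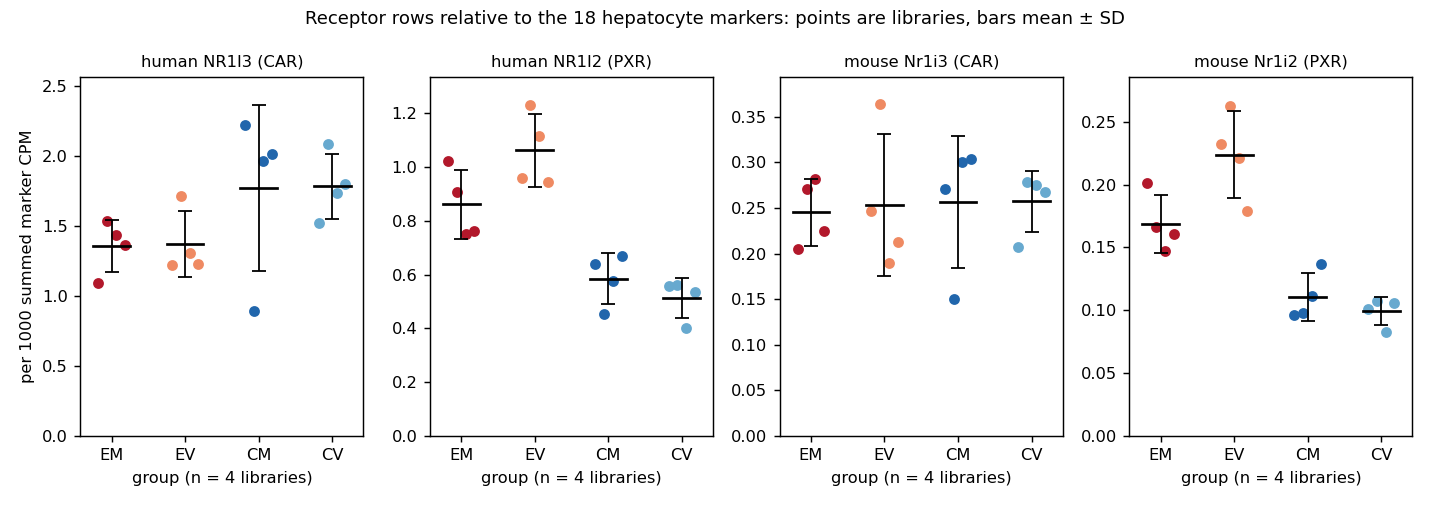
Each receptor row per 1000 CPM of 18 summed hepatocyte markers on the vertical axis, in the EM, EV, CM and CV groups. Points are libraries (n = 4 per group), the long bar is the mean and the error bar the SD. The CAR rows overlap between groups with and without EE, and both PXR rows are higher in EM and EV than in CM and CV livers. The marker sum they are divided by is itself lower with EE.

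No receptor row passed the test for an effect of the CAR ligand, and none had an unadjusted p under 0.05 in CM vs CV or EM vs EV or was called by DESeq2. Over all genes 10.5% in CM vs CV and 12.7% in EM vs EV had an unadjusted p that low. In CM vs CV the log2 fold changes were -0.07 for NR1I3 (95% interval -0.51 to 0.37, adjusted p = 0.947), -0.07 for Nr1i3 (-0.50 to 0.37, adjusted p = 0.952), 0.15 for NR1I2 (-0.05 to 0.36, adjusted p = 0.622) and 0.13 for Nr1i2 (-0.07 to 0.33, adjusted p = 0.694). Few genes passed in this comparison, 0.0929% of those tested, and the intervals for the CAR rows are wide. Without CM replicate 2 the CAR rows were at 0.12 (NR1I3) and 0.08 (Nr1i3). During EE treatment, EM vs EV gave 0.32 for NR1I3 (-0.12 to 0.77, adjusted p = 0.584), 0.30 for Nr1i3 (-0.14 to 0.75, adjusted p = 0.609), -0.01 for NR1I2 (adjusted p = 0.993) and -0.10 for Nr1i2 (adjusted p = 0.742), where 1.69% of genes passed. EM replicate 1 was the lowest EM library for both CAR rows, and without it the changes were 0.47 for NR1I3 (adjusted p = 0.249) and 0.44 for Nr1i3 (adjusted p = 0.297). Averaged over EE status, the ligand gave 0.13 for NR1I3 (-0.19 to 0.44, adjusted p = 0.816), 0.12 for Nr1i3, 0.07 for NR1I2 and 0.01 for Nr1i2, with 0.348% of genes called. The ligand effect with and without EE did not differ detectably for any row, with interaction terms of 0.39 ± 0.29 for NR1I3 (adjusted p = 0.598), 0.37 for Nr1i3, -0.16 for NR1I2 and -0.23 for Nr1i2, where 0.132% of genes were called.

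Within the EE-treated libraries and within the others, the rows of one receptor varied together to differing degrees. NR1I3 and Nr1i3 correlated across the 8 EE-treated libraries with Pearson's r of 0.857 (exact permutation p = 0.0118, adjusted over 12 relations 0.0707) and Spearman's rho of 0.786 (exact p = 0.0279, adjusted 0.335), and r was 0.672 without the 2 libraries farthest from the median NR1I3. Across the 8 libraries without EE, r was 0.907 (exact p = 0.00489, adjusted 0.0586) and rho 0.690 (exact p = 0.0694, adjusted 0.416). This relation rests on 2 libraries, CM replicate 2 among them, since r was 0.354 without them. NR1I2 and Nr1i2 had an r of 0.405 with EE and 0.380 without (exact p = 0.319 and 0.356). No relation passed after adjustment.

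Over all 16 libraries, as a description in which EE status and shared scaling enter, the gene most like NR1I3 was Nr1i3 and the reverse held too (r = 0.974). Whether reads shared between these 2 rows enter as well was not tested. After Nr1i3 came, for NR1I3, Slc10a1, the sinusoidal bile acid uptake carrier NTCP (r = 0.973), Pbld1 (0.971), Nags, the enzyme that makes the activator of the urea cycle (0.969), Gypc (0.968) and Cyp2j5, an arachidonic acid epoxygenase (0.968). Slc10a1 fell by 2.44 on the log2 scale in EV vs CV and Nags by 0.88. For Nr1i3 the nearest after NR1I3 were Bbox1, the last enzyme of carnitine synthesis (0.959), Sdr42e1 (0.958), Ak3, a mitochondrial adenylate kinase (0.957), Txnrd3 (0.957) and Nags (0.956). The PXR rows had looser neighbours. Srrm2, a splicing factor (0.881), led for NR1I2, before Tagap1 (0.864), Rpp21 (0.862), Klhl3 (0.857) and Mapkapk5 (0.856), and Ftl1, the ferritin light chain (0.863), led for Nr1i2, before Pak1ip1 (0.848), Lin7c (0.8287), Spag7 (0.810) and Gm2a (0.805). NR1I2 and Nr1i2 had an r of 0.702 with each other, with 112 tested genes closer to Nr1i2 than NR1I2 was.

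Among nuclear receptor genes the CAR rows lay near the bottom of the EE response. Of 47 other family members listed, 34 were tested, and 19 fell and 2 rose in EV vs CV (median -0.52), but with library totals 6 fell and 10 rose, so the direction of the family depends on the scaling. Nr1d1, the clock repressor REV-ERB alpha, had the lowest value (-2.09), followed by NR1I3, then Nr6a1 (-1.42) and Nr1i3. On library totals Nr1d1 had -1.60 and Nr6a1 -0.94. NR1I2 had rank 25 and Nr1i2 rank 29 from the bottom of the 38 rows. Over all genes, 24.9% fell and 25.5% rose in EV vs CV with trimmed-mean scaling, and 18.6% and 19.4% in EM vs CM. In EM vs CM 12 fell and 1 rose, with NR1I3 at rank 3 and Nr1i3 at rank 5 from the bottom, beside Nr1d1 (-1.94), Nr4a1 (-1.49) and Rxrg (-1.05), and with library totals 3 fell and 5 rose. No family member passed in CM vs CV or EM vs EV by edgeR, where an unadjusted p under 0.05 was found for 3 higher and 3 lower members in CM vs CV and for 4 higher and 1 lower in EM vs EV of the 34 tested, not far from the 10.5% and 12.7% of all genes, and DESeq2 called 1 in each. Pgr, the progesterone receptor and a gene known to be induced by estrogen, averaged 1.27 ± 0.837 CPM in EM and 3.49 ± 0.498 in EV livers and was at 0 in all CM and CV libraries (SD, n = 4 each).

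**Figure D5:**
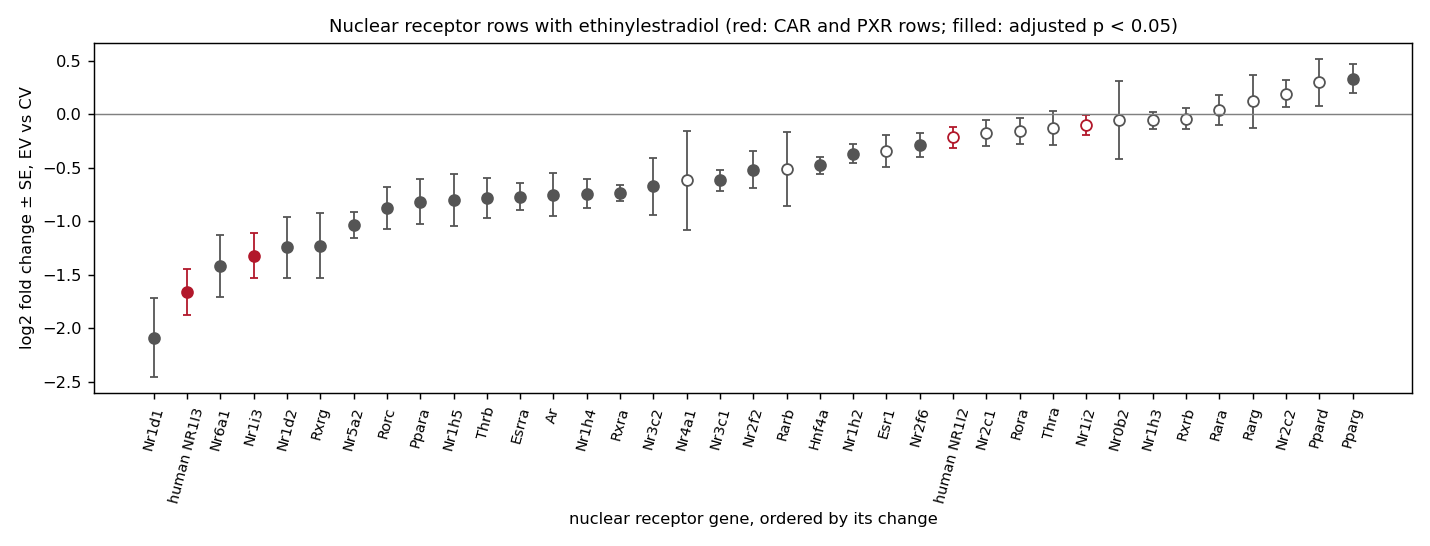
Log2 fold change in EV vs CV with its standard error on the vertical axis for the nuclear receptor rows tested, ordered by value, with the CAR and PXR rows in red and filled symbols for an adjusted p under 0.05. Pgr is left out because its CV libraries are all at 0. NR1I3 and Nr1i3 lie at ranks 2 and 4 from the bottom, at -1.66 and -1.32, and the PXR rows lie close to 0, with trimmed-mean scaling.

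The heterodimer partner Rxra was lower with EE. It stood at 98.9, 98.4, 113 and 94.3 CPM in EM livers and at 95.5, 95.6, 91.7 and 102 CPM in EV livers. CM livers had 162, 149, 156 and 164 CPM, and CV livers had 152, 150, 158 and 180 CPM. With trimmed-mean scaling, livers with and without EE did not overlap. Such a downward separation was shown by 22.7% of genes in EV vs CV, 16.8% in EM vs CM, 18.1% in EM vs CV and 21.8% in EV vs CM. On library totals it was not complete, as EM replicate 3 lay above CV replicate 2. Rxra fell by 0.73 ± 0.075 in EV vs CV (adjusted p = 1.51e-06) and by 0.64 ± 0.075 in EM vs CM (adjusted p = 1.36e-05), and the EV vs CV value on library totals was -0.25 (adjusted p = 0.0216). Of the 14 partners and coregulators, all tested, 6 fell and 4 rose in EV vs CV (median -0.22), and 5 fell and 2 rose in EM vs CM. Over all genes 24.9% fell and 25.5% rose in EV vs CV, and 18.6% and 19.4% in EM vs CM. With library totals 4 of the list fell and 5 rose in EV vs CV, and 3 fell and 7 rose in EM vs CM. Ppargc1a, the coactivator PGC-1 alpha, fell by 1.76, and Ppargc1b, a relative of it, fell by 2.33 in EV vs CV. On library totals both kept that direction, at -1.28 and -1.86. For the ligand, none of the 14 passed in CM vs CV or in EM vs EV by edgeR or DESeq2, with 1 at an unadjusted p under 0.05 in each.

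Genes that hold CAR in the cytoplasm or release it had a median change near 0 with trimmed-mean scaling. Of 15, all tested, 3 fell and 2 rose in EV vs CV (median -0.03), while with library totals 1 fell and 8 rose. In EM vs CM 4 fell and 0 rose (DESeq2 called 3 lower and 0 higher), and with library totals 1 fell and 8 rose. Among all genes 24.9% fell and 25.5% rose in EV vs CV, and 18.6% and 19.4% in EM vs CM, with trimmed-mean scaling. With library totals most of all genes called in either comparison were higher. Ppp1r16a, a phosphatase subunit found with CAR at the membrane in mouse liver, fell by 0.90 (adjusted p = 8.99e-06), and its library-total value was -0.41 (adjusted p = 0.00587). Ptges3, the HSP90 co-chaperone p23, fell by 0.37, and Prkaa2, a catalytic subunit of AMPK, fell by 0.49, and both lost their call with library totals (0.12 and -0.01). Mapk3, the kinase ERK1, rose by 0.58 and by 1.06 with library totals. None of the 15 passed in CM vs CV or EM vs EV by edgeR or DESeq2, with 0 and 1 of them at an unadjusted p under 0.05.

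Liver transcription factors listed as possible regulators of the receptor genes were mostly lower with trimmed-mean scaling. Their part in the receptor results was not tested. Of 14, all tested, 10 fell and 0 rose in EV vs CV (median -0.57) and 8 fell and 0 rose in EM vs CM (median -0.42), and no rise had an unadjusted p under 0.05 or was called by DESeq2. For all genes the shares were 24.9% lower and 25.5% higher in EV vs CV, and 18.6% and 19.4% in EM vs CM. With library totals 4 of the list fell and 1 rose in EV vs CV, and 3 fell and 1 rose in EM vs CM. Most of all genes called in these comparisons were then higher. Cebpa, a hepatocyte differentiation factor, averaged 98.7 ± 24.5 CPM in EM, 84.7 ± 10.5 in EV, 180 ± 44.6 in CM and 263 ± 25.3 in CV livers (SD, n = 4 each), and fell by 1.63 in EV vs CV (adjusted p = 3.98e-06). Nr5a2, the receptor LRH-1, fell by 1.04 and Foxa3, a forkhead factor, by 1.21, and with library totals their values were -0.56 and -0.72, both still called. Nr3c1, the glucocorticoid receptor, fell by 0.62, and that call was lost with library totals (-0.13). Hnf4a fell by 0.48 and was at 0.01 with library totals. For the ligand, none of the 14 passed in CM vs CV or EM vs EV by edgeR. At an unadjusted p under 0.05, 4 were lower and 0 higher in CM vs CV, where 10.5% of all genes had such a p. The largest of these was Cebpa at -0.54 (edgeR, adjusted p = 0.287), and DESeq2 called 0. In EM vs EV 1 was higher and 0 lower by that rule, against 12.7% of all genes, and DESeq2 called 1 higher.

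Target genes of CAR and PXR include members that rose with the ligand. Of 38 listed, 34 were tested. In EV vs CV 24 fell and 4 rose (median -1.40), in EM vs CM 23 fell and 1 rose (median -1.19), in CM vs CV 2 rose (median 0.41) and in EM vs EV 10 rose (median 0.69), and with library totals 20 fell and 5 rose in EV vs CV and 7 rose in EM vs EV. By DESeq2, 7 rose in CM vs CV and 15 in EM vs EV. Of all genes tested by edgeR, 24.9% fell and 25.5% rose in EV vs CV, and 18.6% and 19.4% in EM vs CM. In CM vs CV 0.0929% of all genes rose, and in EM vs EV 1.51%. The shares called in these 2 ligand comparisons by DESeq2, and in EM vs EV with library totals, are given with the processing alternatives. Some hepatocyte markers were also higher: in EM vs EV 3 of 18 rose (median 0.33), Hpd by 0.85, Apoh by 0.58 and Serpinc1 by 0.50, with 6 higher by DESeq2 and 1 with library totals. In CM vs CV 0 of 18 passed by edgeR or DESeq2 or had an unadjusted p under 0.05. The part of these markers in the rise of the targets was not tested. Cyp2b10, the mouse CAR reference target, stood at 294, 260, 256 and 324 CPM in EM and at 57.6, 112, 114 and 77.0 CPM in EV livers. CM livers had 764, 1691, 920 and 808 CPM, and CV livers had 250, 339, 339 and 274 CPM, so the ligand groups lay above their counterparts without overlap, as 2.24% of genes did in CM vs CV and 6.56% in EM vs EV. Cyp2b10 rose by 1.80 ± 0.26 in CM vs CV (adjusted p = 0.00953) and by 1.66 ± 0.26 in EM vs EV (adjusted p = 0.00549), and it fell by 1.74 ± 0.26 in EV vs CV (adjusted p = 4.94e-05).

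CM replicate 2 had the lowest NR1I3, Nr1i3 and NR1I2 of the CM libraries and the highest Cyp2b10, while its Nr1i2, at 13.1 CPM, lay within the range of the others. Cyp2c29, an epoxygenase of the Cyp2c family, likewise stood highest in that library, at 15506 CPM against 7796 to 9892 in the other CM libraries, and rose by 1.45 in CM vs CV (adjusted p = 0.00756), with 0.65 in EM vs EV, which did not pass (adjusted p = 0.127). The human row ENSG00000160868, which belongs to the list of targets, stood at 1319 to 2173 CPM in EM, 261 to 753 in EV, 1950 to 4363 in CM and 750 to 2089 in CV livers. It rose by 1.85 in EM vs EV (adjusted p = 0.0207), a call kept in 11 of 16 fits that left out 1 library, with adjusted p up to 0.0807. In CM vs CV its change was 1.35, which did not pass (adjusted p = 0.182).

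Several further targets fell with EE and were higher in EM than in EV livers. Cyp2c37 averaged 267 ± 62.8 CPM in EM, 61.3 ± 14.3 in EV, 1419 ± 301 in CM and 934 ± 223 in CV livers (SD, n = 4 each). It fell by 3.93 in EV vs CV and rose by 2.12 in EM vs EV (adjusted p = 0.000314). Sult2a1, a sulfotransferase of bile acids and steroids, averaged 404 ± 215 CPM in EM, 20.9 ± 6.24 in EV, 1996 ± 273 in CM and 1554 ± 180 in CV livers, and rose by 4.27 in EM vs EV (adjusted p = 0.000314). Its lowest EM value, 89.8 CPM, was still above the highest EV value of 25.8 CPM. Ugt1a1, the enzyme that glucuronidates bilirubin, fell by 2.20 in EV vs CV and rose by 1.15 in EM vs EV (adjusted p = 0.00417). In CM vs CV none of these 3 passed, at 0.60 for Cyp2c37 (adjusted p = 0.338), 0.36 for Sult2a1 (adjusted p = 0.819) and 0.10 for Ugt1a1 (adjusted p = 0.898). Ces2a, a carboxylesterase, fell by 2.01 and Cyp2b9 by 6.77 in EV vs CV. In EM vs EV Ces2a rose by 0.70 (edgeR, adjusted p = 0.0273) and Cyp2b9 by 2.84 (edgeR, adjusted p = 0.00671). Ces2a kept that call in 10 of 16 fits that left out 1 library, and Cyp2b9 in all 16. EM vs EV and EV vs CV share the EV libraries, so their opposite signs are not independent.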

How the data were processed

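Liver poly(A) RNA was extracted with TRIzol and made into libraries (NEBNext Ultra kit), as the labels' protocols say. The authors deposited estimated counts for 13006 genes in 16 libraries, all whole numbers, and the submitters' processing notes name STAR, Salmon and GRCm39 without versions or roles. Which annotation was used, how reads were counted and by strand or not, and whether values were rescaled by gene length is not given in the sources used here, so no counting interval is printed. Symbols came from GENCODE mouse M21, made for an earlier build, and matched 12692 identifiers. Human rows were identified by ID, and ENSG00000160868 has no name in the files.

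Groups came from the sample titles. The estimated counts were filtered with filterByExpr (12918 genes kept), scaled with TMM factors, and tested by the quasi-likelihood F-test of edgeR 4.0.16 (R 4.3.3) in a robust fit of all 16 libraries with 1 coefficient for each group, with Benjamini-Hochberg adjustment over all genes tested and a threshold of 0.05. The biological coefficient of variation was 0.284, and precision follows from it and from 12 residual degrees of freedom. Each standard error was obtained as log2 fold change over the root of F. Ratios were tested by exact two-sided permutation over libraries. The procedure was tested on simulated counts. No pair of libraries shared values in more than 3.24% of genes.

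The receptor rows, gene lists and tests were chosen with earlier results of these data known. Named genes are the receptor rows, the 5 genes most like each, up to 4 of each list by p in EV vs CV and up to 4 by p for EM vs EV, and Rxra, Cyp2b10 and ENSG00000160868. Nr1d1, Nr6a1, Nr4a1, Rxrg, Hnf4a and Cyp2c29 were named after their values were seen, and not every gene under the rule is printed. Alternatives were RLE factors, library totals, no filter, at least 1 CPM in 8 or more libraries, DESeq2 (version 1.42.0), the compared groups alone, the replicate block, each library left out and 10 added to the counts of ratios. The EE average, the averaged ligand ratios, the hepatocyte marker scale and 3 promoter motifs were added after the data were seen. Figures were drawn with matplotlib 3.10.9.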

Additional observations from a re-analysis of the deposited data

Results flagged for a closer look

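Cyp2b10, the CAR target used as a readout beside the receptors, had 1 library far from the others of its group: CM replicate 2 stood at 1691 CPM, with the other CM libraries between 764 and 920 CPM. This library also had the lowest NR1I3 (120 CPM) and Nr1i3 (20.2 CPM) of its group. Among 44 groups of 4 libraries examined this way it was the only one past Dixon's 95% critical value, and chance alone flags about 1 in 20 groups.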

How the results depend on the processing

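The CAR falls with EE kept their direction and their call under RLE factors, library totals, no filter, the CPM filter, DESeq2, the compared groups alone, the replicate block and each library left out. Leaving out 1 library gave -1.74 to -1.59 for NR1I3 and -1.48 to -1.22 for Nr1i3 in EV vs CV, and -1.46 to -1.12 and -1.10 to -0.81 in EM vs CM. Leaving out 1 library moved NR1I2 between -0.29 and -0.16 in EV vs CV and between -0.27 and -0.18 in EM vs CV, and Nr1i2 in EM vs CM between -0.39 and -0.26 (highest adjusted p 0.048). With library totals the PXR rows turned round: NR1I2 to 0.27 and Nr1i2 to 0.39 in EV vs CV, to 0.00357 and 0.0451 in EM vs CM, and to 0.14 (adjusted p = 0.0798) and 0.22 (adjusted p = 0.0158) in the EE average. In EM vs CV they were at 0.16 and 0.18. On the hepatocyte marker scale, leaving out 1 library gave EE averages of -0.50 to -0.28 for NR1I3, which passed without CM replicate 2 and in no other of these fits, -0.16 to 0.0223 for Nr1i3, 0.75 to 0.84 for NR1I2 and 0.85 to 0.95 for Nr1i2.

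The share of tested genes called was less steady in the ligand comparisons. CM vs CV called 0.0929% (12 genes, and 1362 at an unadjusted p under 0.05), against 0.0464% with the replicate block, 0.0155% with the compared groups alone, 1.84% with DESeq2 and 0.031% to 0.302% with 1 library left out. EM vs EV called 1.69%, against 0.983% with library totals, 4.54% with DESeq2 and 0.279% to 3.44% with 1 library left out. The interaction called 0.132%, against 0.201% with library totals, 0.612% with the replicate block, 3.58% with DESeq2 and 0.0774% to 1.61% with 1 library left out. The ligand average called 0.348%, against 0.201% with library totals, 2.60% with DESeq2 and 0.178% to 1.07% with 1 library left out. Among the values with 1 library left out, the highest came without EM replicate 1 in EM vs EV, the interaction and the ligand average, and without CM replicate 4 in CM vs CV. The lowest came without CV replicate 1 in CM vs CV, EV replicate 2 in EM vs EV, EV replicate 1 in the ligand average, and EV replicate 1, EV replicate 2 or EM replicate 4 in the interaction. The causes were not tested. Library totals also moved the share of called genes that were higher to 86.3% in place of 51.0% in EM vs CM, 85.7% in place of 50.8% in EM vs CV, 59.1% in place of 89.4% in EM vs EV, 46.2% in place of 76.5% for the interaction and 84.1% in place of 50.6% in the EE average.

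Replicate numbers did not pair the libraries: the deviations of 24 same-numbered pairs correlated between -0.0524 and 0.0957, and 6 of 16 libraries matched their own number best. The replicate block changed no receptor call. The 3 EE-averaged ratios that passed kept their direction and call with 10 added and with each library left out, and the separate ratio comparisons passed in none of these or with the block, where 4 pairs cannot go below an exact p of 0.125.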
